A study of Mus musculus with 8 samples.

Results

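The DNA replication machinery was represented by 44 genes, taken by symbol, out of 28460 genes in a table of 8 RNA-seq libraries. All 44 were in the table and all 44 passed the filter on low counts, so that none was left out. They were followed in spermatogenic cells from testes of mice of mixed background at postnatal day 12. The comparison was between 4 libraries labelled Brg1WT (Brg1 WT) and 4 labelled as the conditional knockout (Brg1 cKO), which the series' design text calls biological replicates. The sources used here name neither the Cre line nor the part of the gene deleted, and no treatment. The cells were obtained by enzyme digestion and passage through a sieve, and the labels name no sort by a marker. Brg1, encoded by Smarca4, is an ATPase of the SWI/SNF complex, which moves nucleosomes on DNA.

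Copying the genome begins at origins. The origin recognition complex binds there and, with Cdc6 and Cdt1, loads the ring of MCM proteins 2 to 7, the helicase core, in an inactive form. Cdc45 and the GINS proteins then join the ring and switch it on, primase and DNA polymerase alpha start each strand, the clamp loader RFC places the sliding clamp PCNA, and polymerases delta and epsilon extend the strands. RPA coats the exposed single strands, Fen1 and Lig1 join the pieces of the lagging strand, and ribonucleotide reductase with thymidylate enzymes supplies the building blocks. In the postnatal testis, spermatogonia divide and replicate their DNA, cells entering meiosis pass through a last S phase, and young Sertoli cells also divide for a time after birth. Transcription of many of these genes is tied to the cell cycle through E2F factors, and CCAAT boxes and CHR elements are further promoter elements known from cell cycle genes.

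Promoter windows from RefSeq (build GRCm38.p6, 250 bases before to 50 after a transcription start) were at hand for 37 of the 44 genes, in 45 windows. They were searched on both strands for 4 E2F words (TTTCCCGC, TTTCGCGC, TTTGCCGC and TTTGGCGC), for CCAAT and for the CHR word TTTGAA. The words can overlap one another, and a match says only that these letters stand in the window. Windows of 5 genes are printed, and they do not stand for the 44. Orc1, Cdc6 and Gins3 are the only ones with an E2F word among the 12 genes with a window that fell in Brg1 cKO. Rrm2 fell too and held none, and Mcm6 is an uncalled member of the helicase ring with several words. Other genes that fell and are described in full are not printed. Capitals mark E2F words and CCAAT boxes on either strand, and distances count bases from the start to the first base of the word. Orc1 (chr4:108579204-108579503, plus strand) held an E2F word 27 bases before the start and CCAAT boxes 120 and 66 bases before it. Cdc6 (chr11:98907901-98908200, plus strand) held an E2F word 138 bases before the start. Gins3 (chr8:95633309-95633608, plus strand) held an E2F word 41 bases before the start, CCAAT boxes 144 and 124 bases before it, and a CHR word, left in lower case, 28 bases before it. Rrm2 (chr12:24708004-24708303, plus strand) held a CCAAT box 50 bases before the start and none of the E2F words. Mcm6 (chr1:128359656-128359955, minus strand) held overlapping E2F words 110 and 106 bases before the start, another 47 bases before it, and CCAAT boxes 57 and 14 bases before it.
Orc1: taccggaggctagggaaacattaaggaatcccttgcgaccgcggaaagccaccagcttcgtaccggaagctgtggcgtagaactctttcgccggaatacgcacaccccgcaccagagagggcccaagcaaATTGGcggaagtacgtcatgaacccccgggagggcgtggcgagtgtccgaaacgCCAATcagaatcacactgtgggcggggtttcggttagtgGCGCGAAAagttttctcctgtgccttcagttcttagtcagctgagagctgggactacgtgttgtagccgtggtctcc
Cdc6: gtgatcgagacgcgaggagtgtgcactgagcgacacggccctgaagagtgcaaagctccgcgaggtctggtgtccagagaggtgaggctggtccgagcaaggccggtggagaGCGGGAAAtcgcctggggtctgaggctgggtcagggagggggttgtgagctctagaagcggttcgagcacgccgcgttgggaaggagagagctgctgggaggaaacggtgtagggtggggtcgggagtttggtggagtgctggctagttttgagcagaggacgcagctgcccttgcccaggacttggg
Gins3: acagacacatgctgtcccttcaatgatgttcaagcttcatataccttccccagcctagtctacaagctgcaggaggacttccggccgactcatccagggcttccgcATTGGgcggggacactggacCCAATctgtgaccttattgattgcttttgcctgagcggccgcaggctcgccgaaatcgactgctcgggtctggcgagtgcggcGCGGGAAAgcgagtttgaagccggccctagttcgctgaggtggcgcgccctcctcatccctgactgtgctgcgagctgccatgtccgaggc
Rrm2: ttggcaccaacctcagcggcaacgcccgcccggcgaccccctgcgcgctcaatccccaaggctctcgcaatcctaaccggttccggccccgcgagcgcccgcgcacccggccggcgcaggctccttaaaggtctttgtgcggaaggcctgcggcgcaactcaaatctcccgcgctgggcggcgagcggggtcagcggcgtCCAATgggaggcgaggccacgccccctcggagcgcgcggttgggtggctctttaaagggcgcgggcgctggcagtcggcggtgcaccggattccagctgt
Mcm6: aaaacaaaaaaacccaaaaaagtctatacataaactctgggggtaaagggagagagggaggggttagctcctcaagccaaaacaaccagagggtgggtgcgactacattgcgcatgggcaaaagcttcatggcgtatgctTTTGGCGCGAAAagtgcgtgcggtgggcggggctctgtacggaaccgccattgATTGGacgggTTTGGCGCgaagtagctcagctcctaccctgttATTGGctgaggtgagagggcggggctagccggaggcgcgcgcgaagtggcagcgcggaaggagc

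An E2F word stood in the windows of 14 of the 37 genes (37.8%), against 704 of 27025 genes of the whole promoter table (2.6%). The 14 genes were Orc1, Orc3, Cdc6, Cdt1, Mcm3, Mcm5, Mcm6, Mcm7, Gins3, Rfc3, Pola1, Pold1, Pole2 and Lig1. A CCAAT box stood in 23 of 37 (62.2%, against 41.1% of all genes) and the CHR word in 5 of 37 (13.5%, against 20.2%). The median GC content of the windows was 60% for the replication genes and 52.7% for all windows, and its part in these shares was not tested. Among members of the helicase ring, 4 of 5 with a window held an E2F word and 5 of 5 a CCAAT box. Of the 12 members with a window that fell in Brg1 cKO, 3 held an E2F word and 9 a CCAAT box. Of the 25 other members with a window, 11 held an E2F word and 14 a CCAAT box. The difference between these shares was not tested.

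The libraries held between 20456700 (Brg1 cKO replicate 4) and 32596000 (Brg1 WT replicate 3) estimated counts, and these totals limit the precision of low genes. Levels are CPM, the usual depth-scaled count, here on TMM-scaled library totals, listed for replicates 1 to 4 in that order. Smarca4 had 347, 357, 347 and 338 CPM in Brg1 WT, against 129, 122, 111 and 122 CPM in Brg1 cKO, so that the libraries went with their labels. Germ cell markers were present in every library (Dazl, an RNA-binding protein of germ cells, 645 ± 72.4 CPM in Brg1 WT, against 531 ± 79.3 CPM in Brg1 cKO, SD, n = 4 each). So were markers of somatic cells, with Clu, a secreted chaperone abundant in Sertoli cells, at 2808 ± 329 and 4125 ± 667 CPM. No tested marker of the germ cell and Sertoli cell lists was at 0 in any library. Markers that did not pass the filter on low counts have no level given here. Of all 16059 genes tested, 1900 (11.8%) were lower in Brg1 cKO and 1412 (8.79%) higher at an adjusted p under 0.05, and the median log2 fold change was 0.01. Scaled by library totals alone, 2184 were lower and 812 higher, and relative to the median of the pan-germ cell markers, 540 lower and 8826 higher.

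The question was which transcripts of the replication machinery differed between the genotypes. In Brg1 cKO 15 of the 44 genes fell, and none of the 44 rose, at that threshold (11.8% of all genes tested were lower, 34.1% of these 44). The genes that fell were Orc1, Orc2, Cdc6, Mcm4, Cdc45, Gins3, Rfc1, Pola2, Prim2, Pole, Rpa1, Rpa2, Fen1, Rrm1 and Rrm2. Their levels in Brg1 cKO were 1.17-fold to 1.60-fold lower, with a median of 1.32-fold, and only Gins3 and Rrm2 passed 1.5-fold. At an unadjusted p under 0.05, 28 of the 44 were lower and 0 higher. The share of all genes at that threshold was not counted, so nothing particular to the 44 can be read from that count. The log2 fold change was negative for 40 genes and positive for Orc3, Rfc3, Pola1 and Tyms, with a median of -0.24 over the 44 and a range from -0.68 for Gins3 to 0.19 for Pola1. Of all 16059 genes tested, 7789 had a negative log2 fold change. In 20 genes every Brg1 cKO library lay below every Brg1 WT library, and in 0 above (15% and 11.1% of all genes tested). These directions hold on a scale set by all genes: relative to the median of 20 pan-germ cell markers, which was -0.37, the median of the 44 turned to 0.14, with 9 called higher and 1, Rrm2, lower, while the median of all genes tested moved to 0.39. On that scale 10 of the 44 had a negative log2 fold change, and of these only Rrm2 was called. Where a gene is said below to stay negative relative to this median, only its sign is meant. Orc1, Mcm4, Cdc45, Rfc4, Pole and Rpa2, at -0.46 to -0.38 on the main scale, lay within their standard error of -0.37. The pan-germ list shares Sycp1, Sycp3 and Hormad1 with the meiotic prophase list and Dmrtb1 with that of differentiating spermatogonia. Log2 fold changes of its 20 markers ran from -1.17 to -0.02, so this reference depends on the markers chosen. In bulk samples fewer cells of a type and less RNA per cell cannot be told apart.

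**Figure D1:**
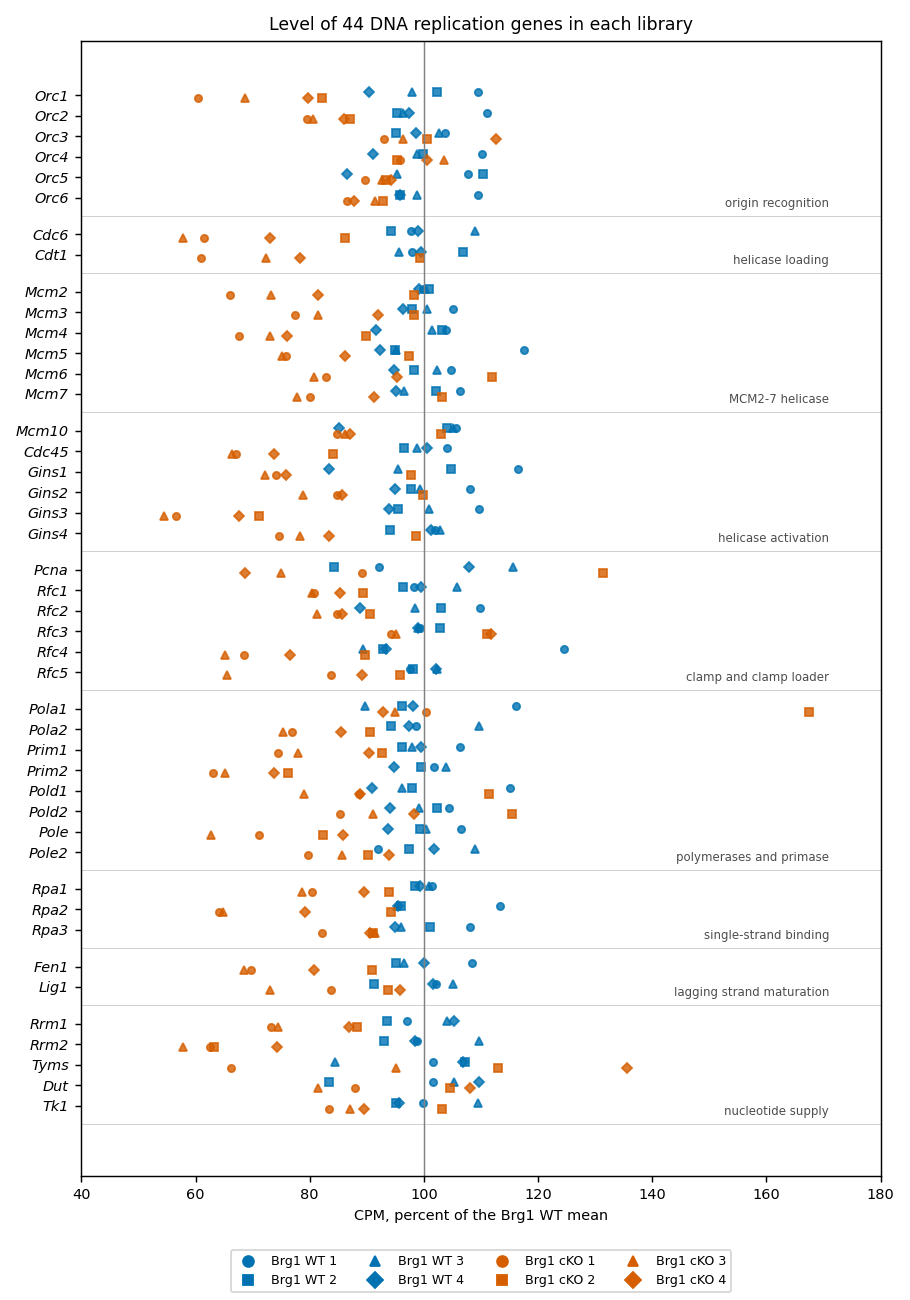
Level of each of the 44 replication genes in each library, as a percent of the gene's Brg1 WT mean CPM (x axis), with genes grouped by role on the y axis. Blue symbols are the 4 Brg1 WT and orange symbols the 4 Brg1 cKO libraries, 1 shape per replicate number. Orange symbols lie left of all blue ones for 20 genes, and the square of Brg1 cKO replicate 2 is the highest of the orange symbols for 33.

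The Brg1 cKO libraries differed among themselves in a like way across the machinery. Brg1 cKO replicate 2 was the highest of its genotype for 33 of the 44 genes, while replicates 1 and 3 were each the lowest of all 8 libraries for 20 genes. Replicate 1 lay below every Brg1 WT library for 39 genes, replicate 3 for 38, replicate 4 for 32 and replicate 2 for 21. In 31 genes all 3 Brg1 cKO libraries other than replicate 2, set aside after its values were seen, lay below all Brg1 WT libraries. The share of all genes so placed was not counted, so these 31 are no result about the replication genes. Counts by library were made for the 44 only, so how all genes rank the libraries was not tested. Among Brg1 WT libraries, replicate 1 was the highest of all 8 for 22 genes. The median coefficient of variation (SD over mean) of the 44 was 6.17% in Brg1 WT and 12.2% in Brg1 cKO, beside 10.9% and 12.6% over all genes tested. It was larger in Brg1 cKO for 35 of the 44 genes (79.5%) and for 59.9% of all genes.

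How many of the 44 passed the threshold depended on single libraries. Leaving out 1 library at a time gave 10, 9, 7 and 11 genes lower without Brg1 WT replicates 1 to 4, and 5, 24, 6 and 13 without Brg1 cKO replicates 1 to 4, with 0 higher in each of these 8 fits. The number of all genes tested that were lower moved too, from 1900 to 1323, 1137, 1239 and 1623 without Brg1 WT replicates 1 to 4, and to 1052, 1980, 1187 and 1828 without Brg1 cKO replicates 1 to 4. Cdc45, Gins3, Prim2 and Rrm2 passed in all 8, and the other 11 in 6 or fewer. Without Brg1 cKO replicate 1, 10 genes lost their call (Orc2, Cdc6, Mcm4, Rfc1, Pola2, Pole, Rpa1, Rpa2, Fen1 and Rrm1, adjusted p = 0.050 to 0.12). Without its replicate 3, 9 did so (Orc1, Orc2, Cdc6, Mcm4, Pola2, Rpa1, Rpa2, Fen1 and Rrm1, adjusted p = 0.050 to 0.11), and without its replicate 4, Pola2 and Rpa2 did (adjusted p = 0.053 and 0.068). Without Brg1 WT replicate 1 the calls of Pola2, Pole, Rpa1, Rpa2 and Fen1 were lost (adjusted p = 0.051 to 0.11). Without Brg1 WT replicate 2 those of Orc1, Mcm4, Pola2, Rpa1, Rpa2 and Fen1 were lost (adjusted p = 0.050 to 0.085), without replicate 3 those of Orc2, Cdc6, Rfc1, Pola2, Rpa1, Rpa2, Fen1 and Rrm1 (adjusted p = 0.050 to 0.11), and without replicate 4 those of Pola2, Rpa1, Rpa2, Fen1 and Rrm1 (adjusted p = 0.055 to 0.072). Calls were gained by Cdt1, Mcm2, Mcm3, Mcm5, Mcm7, Gins2, Gins4, Rfc4 and Prim1 without Brg1 cKO replicate 2 (adjusted p = 0.0070 to 0.042) and by Rfc2 without Brg1 WT replicate 4 (adjusted p = 0.039). When replicates 1 and 2 of Brg1 WT were both dropped, only Prim2 and Rrm2 of the 44 passed, and over all genes 438 (2.66%) were called, 342 of them lower. In that fit 37 of the 44 stayed negative and the median was -0.23.

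In the origin recognition complex, 2 of 6 subunits fell, Orc1 and Orc2 (33.3% beside 11.8% of all genes tested). Relative to the pan-germ median 1 of the 6 stayed negative, without a call. Orc1, the subunit with the ATPase that drives loading, had 39.0, 36.5, 34.9 and 32.2 CPM in Brg1 WT, against 21.6, 29.3, 24.5 and 28.4 CPM in Brg1 cKO. The groups did not overlap, with means of 35.7 ± 2.83 and 25.9 ± 3.57 CPM (SD, n = 4 each), and the log2 fold change was -0.46 ± 0.11 (SE, adjusted p = 0.019). Orc2 had 84.8, 72.8, 73.6 and 74.3 CPM in Brg1 WT, against 60.7, 66.5, 61.6 and 65.6 CPM in Brg1 cKO. Brg1 WT replicate 1 stood above the other libraries, and the groups did not overlap without it either. The log2 fold change of Orc2 was -0.26 ± 0.067 (adjusted p = 0.024). Orc3, the uncalled subunit with the highest CPM, had 67.0, 61.4, 66.2 and 63.6 CPM in Brg1 WT, against 60.1, 64.9, 62.2 and 72.7 CPM in Brg1 cKO. Its means of 64.6 ± 2.55 and 65.0 ± 5.53 CPM differed by less than the spread between replicates (log2 fold change 0.01 ± 0.070, adjusted p = 0.94). Orc4, Orc5 and Orc6 had log2 fold changes of -0.02, -0.11 and -0.16, with adjusted p from 0.13 to 0.88. Orc6 was lower in every Brg1 cKO library without passing the test.

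Of the loading factors, Cdc6 fell and Cdt1 did not pass the test. Relative to the pan-germ median only Cdc6 stayed negative, without a call. Cdc6, which closes the origin complex around DNA, had 26.4, 25.5, 29.4 and 26.7 CPM in Brg1 WT, against 16.6, 23.3, 15.6 and 19.7 CPM in Brg1 cKO. The means of 27.0 ± 1.70 and 18.8 ± 3.45 CPM gave a log2 difference of -0.52 ± 0.13 (SE, adjusted p = 0.021), and no library of one genotype reached the range of the other. Cdt1, the partner that brings the helicase ring, had 34.6, 37.7, 33.8 and 35.1 CPM in Brg1 WT, against 21.5, 35.1, 25.5 and 27.6 CPM in Brg1 cKO. Replicate 2 of Brg1 cKO was as high as the Brg1 WT libraries, and the log2 fold change of Cdt1 was -0.36 ± 0.13 (adjusted p = 0.078).

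All 6 genes of the MCM ring had negative log2 fold changes, with a median of -0.23. Mcm4 alone passed the test (16.7% of the ring beside 11.8% of all genes tested lower). Relative to the pan-germ median of -0.37 Mcm4 alone stayed negative, but at -0.38 it lay almost on that reference and was not called there. Mcm4 had 105, 104, 102 and 92.5 CPM in Brg1 WT, against 68.2, 90.8, 73.7 and 76.7 CPM in Brg1 cKO. The log2 fold change was -0.38 ± 0.088 (SE, adjusted p = 0.018), and the lowest Brg1 WT library lay just above the highest of Brg1 cKO. Mcm2 had 149.6, 151, 150.2 and 148 CPM in Brg1 WT, against 98.9, 147, 109.8 and 122 CPM in Brg1 cKO. The Brg1 WT values of Mcm2 were almost equal (149.8 ± 1.09 CPM), those of Brg1 cKO were spread out (119 ± 20.7 CPM), and the groups came close to each other only at Brg1 cKO replicate 2, without overlap. The log2 fold change of Mcm2 was -0.33 ± 0.11 (adjusted p = 0.056). Mcm3, Mcm5, Mcm6 and Mcm7 had log2 fold changes between -0.26 and -0.11 with adjusted p from 0.10 to 0.46, and in each of them Brg1 cKO replicate 2 reached the range of Brg1 WT. CPM per kb of the longest protein-coding transcript served as a rough scale between genes, since the isoforms present were not examined. On it Mcm2 (44.4 ± 0.32), Mcm3 (44.1 ± 1.67) and Mcm7 (43.3 ± 2.23) did not differ beyond their spread in Brg1 WT. Mcm5 followed at 38.0 ± 4.45, Mcm6 at 31.6 ± 1.41 and Mcm4 at 28.1 ± 1.60. In Brg1 cKO the highest was Mcm3 at 38.5 ± 4.19 and the lowest again Mcm4 at 21.6 ± 2.67 CPM per kb.

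**Figure D2:**
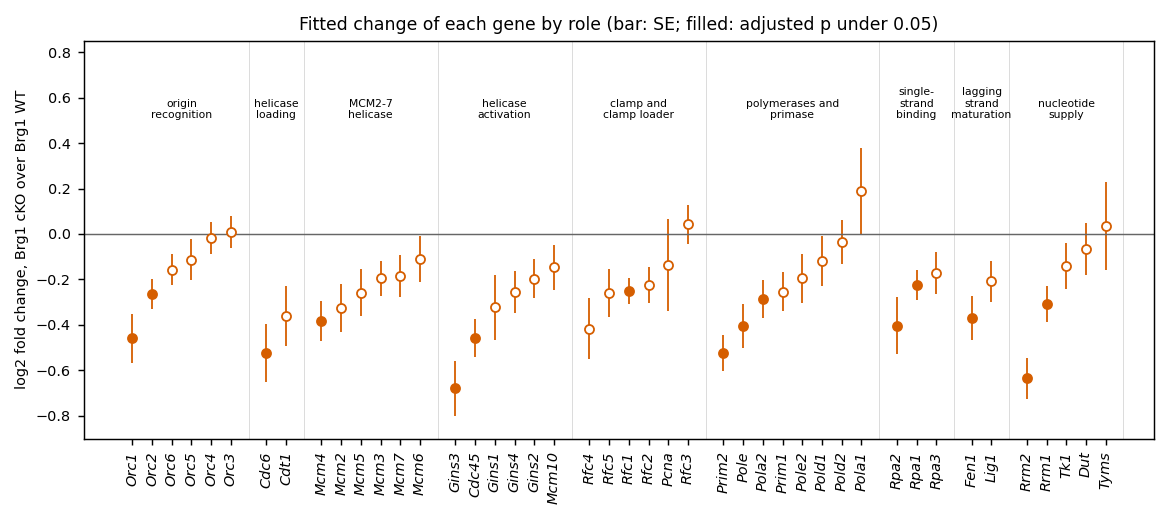
Fitted log2 fold change, Brg1 cKO over Brg1 WT (y axis), of each of the 44 genes, grouped by role along the x axis, with bars of 1 SE. Filled circles are the 15 genes with an adjusted p under 0.05, all below 0 on this scale set by all genes, from Gins3 at -0.68 to Rpa1 at -0.22, and relative to the pan-germ marker median of -0.37 all but 10 of the 44 would lie above 0.

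Among the genes that switch the helicase on, 2 of 6 fell, Cdc45 and Gins3 (33.3% beside 11.8% of all genes tested). Both stayed negative relative to the pan-germ median, neither of them called there. Cdc45 had 58.2, 53.9, 55.2 and 56.2 CPM in Brg1 WT, against 37.5, 47.0, 37.1 and 41.2 CPM in Brg1 cKO. With means of 55.9 ± 1.79 and 40.7 ± 4.57 CPM (SD, n = 4 each), its log2 fold change was -0.46 ± 0.083 (SE, adjusted p = 0.0075), and a gap lay between the groups. Gins3, a subunit of the GINS complex, had 14.8, 12.9, 13.7 and 12.7 CPM in Brg1 WT, against 7.65, 9.62, 7.38 and 9.15 CPM in Brg1 cKO. No Brg1 cKO library came near the Brg1 WT range, and the log2 fold change of -0.68 ± 0.12 (adjusted p = 0.0070) was the lowest of the 44. The other GINS genes moved less: Gins1, Gins2 and Gins4 had log2 fold changes of -0.32, -0.20 and -0.26 with adjusted p from 0.080 to 0.14. Gins2, the uncalled gene with the highest CPM, had 35.8, 32.4, 32.9 and 31.4 CPM in Brg1 WT, against 28.1, 33.1, 26.1 and 28.4 CPM in Brg1 cKO, and the groups overlapped through Brg1 cKO replicate 2. Of the 31-base words of Gins2, 66.2% lie on the opposite strand of Gse1, and the sources used here do not say whether the counting used strand. Per kb of transcript the GINS genes of Brg1 WT ranged from 5.37 ± 0.38 CPM for Gins3 to 24.2 ± 0.96 CPM for Gins4. Mcm10, which helps to activate the ring, had a log2 fold change of -0.15 (adjusted p = 0.30).

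For the clamp and its loader, 1 of 6 genes fell, Rfc1 (16.7%, near the 11.8% of all genes tested). Relative to the pan-germ median of -0.37 Rfc1 turned positive. Only Rfc4 stayed negative, close to that reference and not called. Rfc1, the large loader subunit, had 153, 149.5, 164 and 155 CPM in Brg1 WT, against 125, 139, 125 and 132 CPM in Brg1 cKO. The groups did not overlap, and the log2 fold change was -0.25 ± 0.058 (SE, adjusted p = 0.017). Rfc4 had a larger log2 fold change of -0.42 ± 0.13 but an adjusted p of 0.054, with Brg1 WT replicate 1 at 46.9 CPM and the rest of Brg1 WT at 33.6 to 35.2 CPM. Rfc2, Rfc3 and Rfc5 had log2 fold changes of -0.23, 0.04 and -0.26 with adjusted p from 0.070 to 0.75. Pcna, the sliding clamp, had 95.6, 87.5, 120.0 and 112 CPM in Brg1 WT, against 92.5, 136, 77.8 and 71.3 CPM in Brg1 cKO. Its highest and its lowest library were both Brg1 cKO, and the log2 fold change was -0.13 ± 0.20 (adjusted p = 0.66).

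The estimate for Pcna was shared with a copy. Pcna-ps2, a processed pseudogene, holds 565 of the 31-base words of the Pcna transcripts (23.3%), so that reads from those stretches fit both. Its estimated counts were 1452, 1117, 800.1 and 615 in Brg1 WT and 465, 0, 1021 and 878 in Brg1 cKO, which made up 0% to 37.8% of the counts of the pair. In Brg1 cKO replicate 2, where Pcna was highest, the copy was listed at 0. Pcna and Pcna-ps2 summed gave 145, 130.3, 144 and 137 CPM in Brg1 WT, against 114, 136, 119 and 115 CPM in Brg1 cKO. The sum varied less between replicates than Pcna did, and only Brg1 cKO replicate 2 lay within the Brg1 WT range. Its log2 fold change was -0.20 ± 0.071 (SE, adjusted p = 0.071), in a fit chosen after the values had been seen. Per kb of transcript Pcna, without the copy, was the highest of the 44 in Brg1 WT at 68.4 ± 9.78 CPM.

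**Figure D3:**
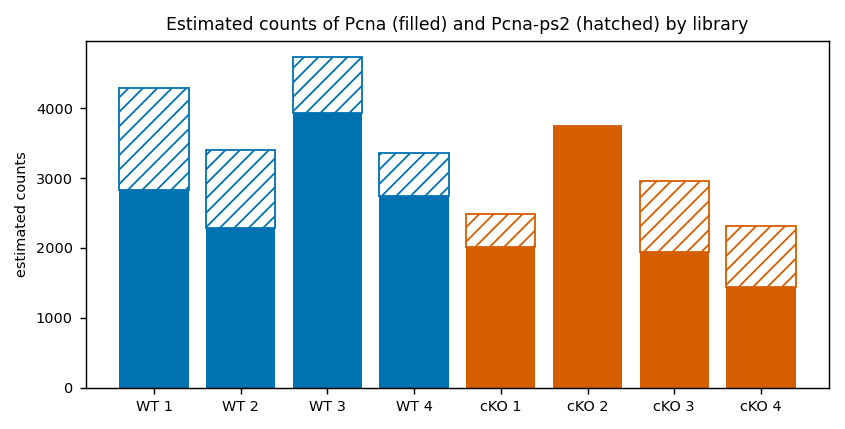
Estimated counts (y axis) of Pcna, filled, and of the processed pseudogene Pcna-ps2, hatched, stacked for each of the 8 libraries (x axis), Brg1 WT in blue and Brg1 cKO in orange. The hatched part is absent in Brg1 cKO replicate 2 and reaches 37.8% of the pair in Brg1 cKO replicate 4.

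**Figure D4:**
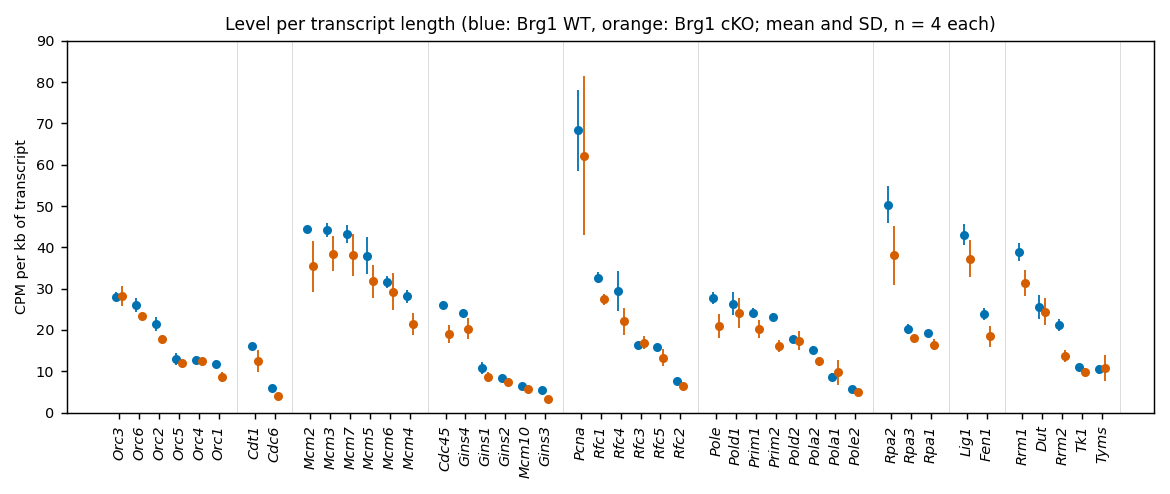
CPM per kb of the longest protein-coding transcript (y axis) of the 44 genes, grouped by role and ordered within a role by the Brg1 WT level (x axis). Points are means and bars SD over 4 libraries, blue for Brg1 WT and orange for Brg1 cKO, with Pcna highest at 68.4 and Gins3 lowest at 5.37 in Brg1 WT.

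Of the 8 polymerase and primase genes, Prim2, Pole and Pola2 fell (37.5% beside 11.8% of all genes tested). Relative to the pan-germ median of -0.37 Prim2 and Pole stayed negative, neither of them called, and Pole lay close to that reference. Prim2, the regulatory subunit of primase, had 46.5, 45.5, 47.5 and 43.4 CPM in Brg1 WT, against 28.8, 34.8, 29.8 and 33.7 CPM in Brg1 cKO. The means of 45.7 ± 1.77 and 31.8 ± 2.95 CPM (SD, n = 4 each) stood far apart beside their spread, and the log2 fold change was -0.52 ± 0.078 (SE, adjusted p = 0.0040). Pole, the catalytic subunit of polymerase epsilon, had 211, 197, 199 and 186 CPM in Brg1 WT, against 141, 163, 124 and 170.2 CPM in Brg1 cKO. Its groups did not overlap, and the log2 fold change was -0.41 ± 0.097 (adjusted p = 0.020). Pola2, the accessory subunit of polymerase alpha, had 36.2, 34.5, 40.2 and 35.7 CPM in Brg1 WT, against 28.2, 33.2, 27.6 and 31.3 CPM in Brg1 cKO, a log2 fold change of -0.28 ± 0.084 (adjusted p = 0.041). The gap between the groups was narrow there. Pola1, the catalytic subunit of that polymerase, had a log2 fold change of 0.19 ± 0.19 (adjusted p = 0.50), with 76.7 CPM in Brg1 cKO replicate 2 beside 42.5 to 46.0 CPM for the rest of Brg1 cKO. Without that library the log2 fold change of Pola1 was -0.06. Pold1, the catalytic subunit of polymerase delta and the uncalled gene with the highest CPM, had 105, 89.1, 87.4 and 82.6 CPM in Brg1 WT, against 80.6, 101, 71.9 and 80.8 CPM in Brg1 cKO. The groups overlapped, and the log2 fold change of Pold1 was -0.12 ± 0.11 (adjusted p = 0.46). Prim1, Pole2 and Pold2 had log2 fold changes of -0.25, -0.19 and -0.04 with adjusted p from 0.064 to 0.82.

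Among the RPA genes, whose products bind single-stranded DNA, Rpa1 and Rpa2 fell and Rpa3 did not pass. Relative to the pan-germ median of -0.37 only Rpa2 stayed negative, close to that reference and not called. Rpa1 had 99.0, 96.0, 98.4 and 96.9 CPM in Brg1 WT, against 78.4, 91.6, 76.8 and 87.3 CPM in Brg1 cKO. The Brg1 WT libraries lay within a few CPM of one another and above all Brg1 cKO libraries, and the log2 fold change was -0.22 ± 0.066 (SE, adjusted p = 0.040). Rpa2 had 103, 87.6, 86.9 and 87.1 CPM in Brg1 WT, against 58.5, 85.9, 59.1 and 72.3 CPM in Brg1 cKO. The gap between the groups was 1 CPM or so wide at Brg1 cKO replicate 2, and the log2 fold change of -0.40 ± 0.13 had an adjusted p of 0.048, which became 0.052 with the size factors of the RLE method. Rpa3 had 14.6, 13.7, 13.0 and 12.9 CPM in Brg1 WT, against 11.1, 12.4, 12.4 and 12.3 CPM in Brg1 cKO, without overlap, and a log2 fold change of -0.17 ± 0.093 (adjusted p = 0.21).

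In lagging strand maturation Fen1 fell and Lig1 did not pass. Relative to the pan-germ median of -0.37 neither stayed negative, with Fen1 almost on that reference. Fen1, the flap nuclease, had 61.5, 53.9, 54.7 and 56.7 CPM in Brg1 WT, against 39.6, 51.6, 38.8 and 45.8 CPM in Brg1 cKO. The libraries did not overlap, and the log2 fold change was -0.37 ± 0.097 (SE, adjusted p = 0.028). Lig1, the ligase, had 139.6, 125, 144 and 139 CPM in Brg1 WT, against 115, 128, 99.8 and 131 CPM in Brg1 cKO. Replicates 2 and 4 of Brg1 cKO lay within the Brg1 WT range, and the log2 fold change of Lig1 was -0.21 ± 0.090 (adjusted p = 0.12).

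In nucleotide supply both genes of ribonucleotide reductase on the list fell, and the thymidine nucleotide genes did not pass; relative to the pan-germ median Rrm2 alone of the 5 stayed negative. Rrm2, the small subunit made in S phase, had 45.8, 43.1, 50.8 and 45.6 CPM in Brg1 WT, against 28.9, 29.3, 26.7 and 34.4 CPM in Brg1 cKO. Its means of 46.3 ± 3.21 and 29.9 ± 3.25 CPM (SD, n = 4 each) differed by a log2 fold change of -0.64 ± 0.090 (SE), and the adjusted p of 0.0034 was the lowest of the 44. Here Brg1 cKO replicate 2 was not the highest of its group. Rrm1, the large subunit, had 151, 146, 162 and 164 CPM in Brg1 WT, against 114, 138, 116 and 135 CPM in Brg1 cKO, without overlap, and a log2 fold change of -0.31 ± 0.078 (adjusted p = 0.025). Dut, which removes dUTP, had 50.6, 41.6, 52.4 and 54.6 CPM in Brg1 WT, against 43.8, 52.0, 40.5 and 53.9 CPM in Brg1 cKO. The ranges of Dut largely coincided, with a log2 fold change of -0.07 ± 0.11 (adjusted p = 0.70). Tyms, thymidylate synthase, ran from 22.0 to 45.0 CPM within Brg1 cKO and from 28.0 to 35.6 CPM within Brg1 WT (log2 fold change 0.04 ± 0.19, adjusted p = 0.91), and Tk1, thymidine kinase, had a log2 fold change of -0.14 (adjusted p = 0.34).

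A further 59 genes of replication and its control were counted in the same fit. Of these, 23 fell and 3 rose (11.8% and 8.79% of all genes tested), with a median log2 fold change of -0.26; relative to the pan-germ median 4 were called lower and 20 higher. Without Brg1 cKO replicate 1 or 3 the number lower was 13 or 14, and after dropping both replicates 1 and 2 of Brg1 WT it was 2. Genes of origin firing and its control made up 11 of the 23, out of 15 listed. Cdc7, the kinase that triggers firing, had 71.5, 61.0, 58.9 and 56.0 CPM in Brg1 WT, against 39.0, 46.1, 40.8 and 46.2 CPM in Brg1 cKO, and its log2 fold change was -0.52 ± 0.093 (SE, adjusted p = 0.0070). Ticrr, which helps Cdc45 to join the ring, had 53.9, 44.7, 42.6 and 38.4 CPM in Brg1 WT, against 28.5, 31.2, 25.5 and 32.6 CPM in Brg1 cKO, a log2 fold change of -0.61 ± 0.12 (adjusted p = 0.0090). Neither gene overlapped between the genotypes. At the fork 4 of 18 fell, 22.2% of that role beside 11.8% of all genes tested. Among them were Atad5, which takes the clamp off, at a log2 fold change of -0.56 ± 0.095 (adjusted p = 0.0062), and Clspn, a fork checkpoint protein, with -0.45 ± 0.081 (adjusted p = 0.0073).

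Of 7 genes of chromatin assembly at forks 3 fell and 1 rose (42.9% and 14.3%, beside 11.8% and 8.79% of all genes tested). Asf1b, a histone chaperone, had 77.2, 64.2, 67.7 and 63.6 CPM in Brg1 WT, against 29.1, 31.9, 31.6 and 38.2 CPM in Brg1 cKO. This was 2.08-fold lower, a larger fall than that of any of the 44, and the log2 fold change was -1.06 ± 0.098 (SE, adjusted p = 6.9e-04). Chaf1a and Chaf1b, the large and middle subunits of the histone assembly factor CAF-1, were called in opposite directions at log2 fold changes of -0.43 ± 0.089 (adjusted p = 0.013) and 0.41 ± 0.11 (adjusted p = 0.030); Chaf1b was chosen for naming after its value was seen. The call of Chaf1b was lost with library totals only (adjusted p = 0.087) and without any 1 of the Brg1 WT libraries (adjusted p = 0.052 to 0.065). Among 6 further nucleotide genes 1 fell and 1 rose (16.7% each, near the 11.8% and 8.79% of all genes tested). Dck, the deoxycytidine kinase of the salvage route, had 53.6, 51.6, 50.6 and 51.3 CPM in Brg1 WT, against 31.2, 38.5, 28.2 and 35.5 CPM in Brg1 cKO (log2 fold change -0.63 ± 0.095, adjusted p = 0.0040). Rrm2b, the small reductase subunit used outside S phase, had 27.7, 26.2, 25.6 and 29.1 CPM in Brg1 WT, against 32.8, 34.7, 35.0 and 33.7 CPM in Brg1 cKO. It was higher in every Brg1 cKO library, opposite in sign to Rrm2, with a log2 fold change of 0.33 ± 0.069 (adjusted p = 0.013), and scaled by library totals alone its adjusted p was 0.056.

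Of 13 E2F and RB genes, the regulators of S phase transcription, 4 fell and 1 rose (30.8% and 7.69%, beside 11.8% and 8.79% of all genes tested). E2f7, a repressor of the family, had 21.5, 24.3, 24.5 and 24.7 CPM in Brg1 WT, against 12.87, 13.19, 11.99 and 14.99 CPM in Brg1 cKO, and its log2 fold change was -0.84 ± 0.097 (SE, adjusted p = 0.0017). E2f1, an activator, had 37.3, 37.0, 38.0 and 37.3 CPM in Brg1 WT, against 25.0, 30.8, 23.5 and 24.3 CPM in Brg1 cKO, a log2 fold change of -0.53 ± 0.091 (adjusted p = 0.0063). Both stood below every Brg1 WT library in all 4 Brg1 cKO libraries. Rbl2, an RB-related repressor named after its value was seen, was the gene that rose (log2 fold change 0.44 ± 0.090, adjusted p = 0.012), and it was the only 1 of the 3 that rose to keep its call with library totals only.

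The summed level of the 44 genes was 2904 ± 105 CPM in Brg1 WT (2821 to 3043) and 2455 ± 280 CPM in Brg1 cKO (2219 to 2814), 84.5% of the Brg1 WT mean. Several marker lists moved with the genotype too, beside 11.8% of all genes tested lower and 8.79% higher. The part of these lists in the changes of the replication genes was not tested. Of 30 mitosis genes 20 fell, with a median log2 fold change of -0.45 and a sum in Brg1 cKO at 73.7% of Brg1 WT; Top2a, the topoisomerase of dividing cells, went from 430 ± 47.8 to 297 ± 23.8 CPM (adjusted p = 0.0061). Of 20 pan-germ cell markers 4 fell (median -0.37), with sums from 3350 to 4400 CPM in Brg1 WT and from 2605 to 3251 CPM in Brg1 cKO, 78.0% of the Brg1 WT mean. Of 18 meiotic prophase genes 12 fell (median -0.65, sums 1696 to 2441 and 1197 to 1454 CPM). Of 15 genes of undifferentiated spermatogonia 9 fell (median -0.65, sums 589.8 to 757 and 476 to 623 CPM). Of 10 genes of differentiating spermatogonia 5 fell and 1 rose (median -0.56, sums 1094 to 1193 and 749 to 923 CPM). Mki67, which was among the 5, alone gave 396 of the mean sum of 1165 CPM in Brg1 WT and 249 of 840 CPM in Brg1 cKO. Of 11 tested of 14 pachytene and spermatid genes 6 fell (median -1.24, sums 199.7 to 307 and 148 to 163 CPM).

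Of the somatic lists, those of Sertoli and Leydig cells held the most calls. Of 20 Sertoli cell markers 9 rose and 1 fell (median 0.38), with sums from 7000 to 8814 CPM in Brg1 WT and from 8888 to 11744 CPM in Brg1 cKO. Of 10 Leydig cell markers 3 rose, Nr5a1, Fabp3 and Akr1c14 (median 0.67, sums 158 to 176 and 209.9 to 246 CPM). Nr5a1 alone gave 108 of the mean sum of 168 CPM in Brg1 WT and 140 of 229 CPM in Brg1 cKO. The other 7, Star, Cyp11a1, Cyp17a1, Hsd3b1, Insl3, Lhcgr and Hsd17b3, were not called and overlapped between the genotypes. Of 14 peritubular and stromal markers 1 rose (median 0.49, sums 1683 to 2873 and 2350.3 to 3889 CPM), 7.14% beside 8.79% of all genes tested. None of 9 endothelial, 10 macrophage and 5 tested erythroid markers was called, with sums in Brg1 cKO of 183 to 433, 38.0 to 83.0 and 8.81 to 98.6 CPM beside 172 to 272, 42.5 to 62.8 and 10.4 to 29.6 CPM in Brg1 WT. Across libraries of Brg1 cKO, replicate 2 had the highest sums of the replication, mitosis and pan-germ lists (2814, 2564 and 3251 CPM) and the lowest of the Sertoli list (8888 CPM), but also the highest of the peritubular and stromal, endothelial and erythroid lists (3889, 433 and 98.6 CPM). Among Brg1 WT libraries, replicate 1 had the highest sums of the replication, mitosis and pan-germ lists (3043, 3352 and 4400 CPM) and the lowest of the Sertoli list (7000 CPM).

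**Figure D5:**
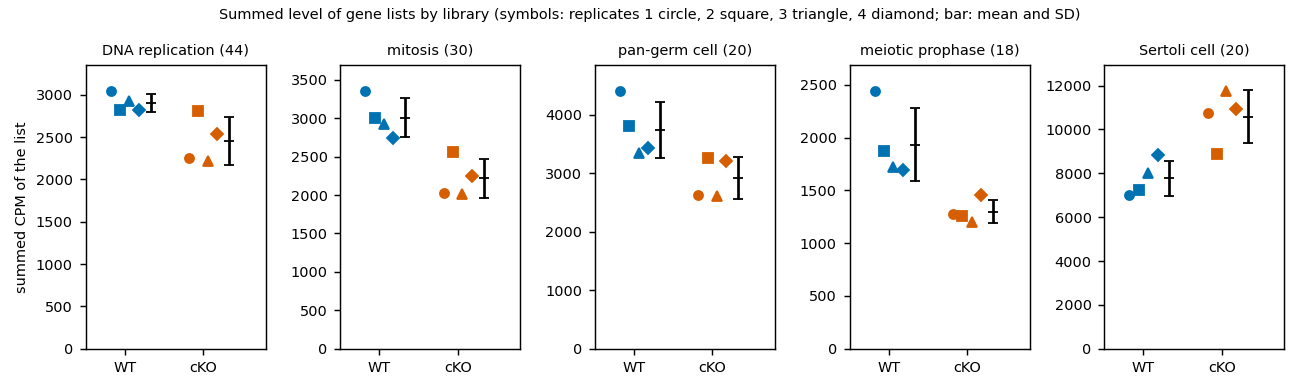
Summed CPM of 5 gene lists (y axis, starting at 0 in each panel) in each library of Brg1 WT and Brg1 cKO (x axis), with the number of genes tested in brackets. Symbols are libraries and bars the mean and SD over 4. The replication sum is lower on average in Brg1 cKO, with replicate 2 (2814 CPM) close under the lowest Brg1 WT library (2821 CPM), while the Sertoli sum is higher in every Brg1 cKO library.

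Genes that share sequence or place with a member were counted as well. Beyond Pcna-ps2, copies on the same strand that share at least 100 words of 31 bases with a member other than Tyms reached at most 7.57 estimated counts in any library. Tyms shares short stretches with many genes. Exons of 17 members overlap exons of another gene in the reference annotation, and for 11 of these the other gene is in the table. Except for Orc5, whose partner is a pseudogene on the same strand, these partners lie on the opposite strand, as with Fen1 and Tmem258, Orc2 and Nif3l1, Mcm7 and Cops6, and Rfc4 and Eif4a2. The library kit marks strand, but the sources used here do not say whether the counting used it, so that the levels of these members are uncertain to that extent.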

How the data were processed

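RNA-seq was done on 8 libraries of mouse spermatogenic cells, and groups and replicate numbers came from the sample titles. The deposited values are estimated counts, 1 row per gene symbol, unscaled for depth or length. Per the submitters' processing notes they come from kallisto 0.42.5, and the notes also list mm9 and edgeR. The sources used here state neither the annotation nor how transcripts were summed to genes.

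Counts were rounded, filtered with filterByExpr by genotype (16059 of 28460 genes), TMM-scaled and fitted in edgeR 4.0.16 (R 4.3.3) for its quasi-likelihood test, with genotype as the only term. P-values were adjusted over all genes tested (Benjamini-Hochberg), and a gene was called at under 0.05. Standard errors are the absolute log2 fold change over the square root of the F statistic. Alternatives were DESeq2 1.42.0, limma-voom (3.58.1), RLE factors, library totals only, other filters, libraries left out, the replicate number as a block and the pan-germ marker median taken as no change.

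The members and lists were chosen with earlier results of these data known. Values per library are given for Smarca4, for up to 4 called members of each of 9 roles and for the uncalled member of each role with the highest CPM, and up to 2 called genes of each other replication role are named. Transcript lengths are those of the longest protein-coding transcript in GENCODE M21, matched by symbol for all 44. Promoters came from RefSeq on another build than the counts and were matched by symbol.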

Additional observations from a re-analysis of the deposited data

Results flagged for a closer look

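Among 90 groups of 4 libraries tested, 10 held a library whose gap to the nearest other exceeded Dixon's 95% critical value, where chance gives about 1 in 20. These groups are genes measured in the same libraries and are not independent, so that rate is no test of an excess. In Brg1 WT, replicate 1 stood high for Orc2 (84.8 CPM beside 72.8 to 74.3 in the others), Mcm5 (151 beside 119 to 122), Rfc4 (46.9 beside 33.6 to 35.2) and Rpa2 (103 beside 86.9 to 87.6). Replicate 2 stood high for Rfc3 (22.2 beside 21.3 to 21.4) and replicate 4 low for Mcm10 (26.5 beside 32.3 to 32.8). In Brg1 cKO, replicate 2 stood high for Mcm10 (32.0 beside 26.3 to 27.1), Gins1 (11.4 beside 8.42 to 8.86) and Pola1 (76.7 beside 42.5 to 46.0), and replicate 1 low for Rpa3 (11.1 beside 12.3 to 12.4). For Pola1 the log2 fold change went from 0.19 to -0.06 without Brg1 cKO replicate 2.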

How the results depend on the processing

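The 15 called members were all called by DESeq2 (18 members lower, 4445 genes called, 2207 of them lower). So they were by limma-voom (16, 3280 and 1900), library totals only (17, 2996 and 2184) and the stricter filter, 1 CPM or more in 4 or more libraries (15, 3307 and 1778). The fit with Pcna-ps2 added to Pcna, chosen after seeing the data, called them too (15, 3316 and 1900). RLE factors gave 14 members lower (without Rpa2) beside 1818 of all genes. No filter gave 12 (without Pola2, Rpa1 and Rpa2) beside 1685. Other replication genes called higher numbered 3, but 5 by DESeq2 and 1 by library totals only, where the members' median was -0.31 and that of all genes -0.06. Leaving out 1 library gave 1608 to 3477 genes called, 5 to 24 members lower, 13 to 29 other replication genes lower and 2 to 4 higher, and a members' median of -0.28 to -0.19. Without Brg1 WT replicates 1 and 2 together, 438 genes were called, 2 members lower, and 2 other replication genes lower and 0 higher. By unadjusted p under 0.05, 15 members were then lower and 0 higher. Without a count over all genes at that threshold, nothing particular to the members can be read from this.

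Relative to the pan-germ median, 9366 genes were called (8826 higher, 540 lower), with 1 member lower and 9 higher, 4 other replication genes lower and 20 higher, and a members' median of 0.14. Same-numbered libraries of the genotypes correlated at -0.30, 0.26, -0.48 and 0.19 in their deviations, and not every library correlated best with its own number, so the numbers were not taken as pairs. With the replicate block 1914 genes were called, 7 members lower, and 15 other replication genes lower and 1 higher, the latter Rbl2.

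Relative to the pan-germ median 6 called members (Orc2, Rfc1, Pola2, Rpa1, Fen1 and Rrm1) turned positive. Under the other alternatives the sign changed 17 times, in uncalled members and in no called gene. The largest absolute value after a change was 0.13, and Pola1 changed from 0.19. The changes were Orc3 (-0.064), Rfc3 (-0.029) and Tyms (-0.035) by library totals only, and Tyms (-0.0025) with the replicate block. With 1 library left out the log2 fold change ran from -0.048 to 0.045 for Orc3, from -0.059 to 0.032 for Orc4, from -0.13 to 0.025 for Pold2, from -0.056 to 0.28 for Pola1, from -0.13 to 0.20 for Tyms and from -0.14 to 0.0044 for Dut. Without Brg1 WT replicates 1 and 2 they were Orc4 (0.059), Orc5 (0.026) and Pold2 (0.015). The cause of these changes was not tested.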
